A study of Mus musculus with 12 samples.

Results

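Of the 15558 long non-coding RNAs (lncRNAs) scored in mouse liver, 9506 were unnamed, intergenic, made of 1 exon, on an autosome and within 100 kb of a RefSeq locus, and these are described here. They were taken from the annotation columns of the deposited lncRNA table (class intergenic, 1 exon, no RefSeq name, chromosome other than X or Y) and from their gap to the nearest of 24197 RefSeq loci, and no expression value was used. Of 12425 unnamed intergenic lncRNAs off the sex chromosomes, 10914 had 1 exon, and 1408 of those lay farther than 100 kb from any RefSeq locus. At the edge of the rule, the last lncRNA inside lay 99954 bp from a locus and the first outside 100072 bp. RNA came from livers of CD-1 mice aged 7 to 11 weeks, intact and untreated, in 4 groups: male nuclear RNA, female nuclear RNA, male total RNA and female total RNA. Each group had 3 pools, each of 12 to 17 mice, and ribosomal RNA was depleted in part in all of them. Nuclei were obtained by homogenising the liver and spinning it through sucrose, and the library kit kept the strand. The study asked which lncRNAs and RefSeq genes differ between the sexes in each kind of RNA. The deposited tables hold the mean of each group and the authors' own male over female comparison, so no SD over pools and no test on single pools can be given. Since whole liver was used, fewer cells of a type and less RNA per cell cannot be told apart.

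Intergenic transcripts of 1 exon are a mixed class in mammals. They include RNAs made from enhancers, RNAs that start at a gene's promoter and run the other way, and transcription that runs on past a gene's end or begins far ahead of its start. Many such RNAs are short-lived and stay at the chromatin, so nuclear RNA usually holds more of them than whole-cell RNA. In rodent liver, sex differences in many genes follow the pattern of growth hormone release, which is pulsatile in males and more continuous in females and acts through the transcription factor STAT5. BCL6, a repressor more abundant in male mouse liver, can bind many of the same DNA sites.

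The genome build of the tables, mm9, was not used here as sequence, so the lncRNAs are given by position, and the sequences shown are promoters of their nearest genes. The first 3 are shown because a lncRNA that differed between the sexes began on the opposite strand within 250 bp of the gene's start, and the gene differed in the same direction. Capitals mark CG pairs in all 3 and the letters TATAAA in the Ces3b promoter. Grn encodes progranulin, a secreted and lysosomal protein, Mfsd2a a transporter of lysophospholipids, and Ces3b a carboxylesterase. Each sequence covers the 250 bases before the RefSeq start site on build GRCm38.p6, written 5′ to 3′ on the gene's strand.
Grn, chr11:102430257-102430506, plus strand: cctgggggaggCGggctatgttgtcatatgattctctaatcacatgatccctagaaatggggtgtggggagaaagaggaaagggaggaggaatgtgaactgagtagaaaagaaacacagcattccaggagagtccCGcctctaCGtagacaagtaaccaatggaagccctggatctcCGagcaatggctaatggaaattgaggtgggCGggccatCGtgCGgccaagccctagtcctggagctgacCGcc
Mfsd2a, chr4:122961189-122961438, minus strand: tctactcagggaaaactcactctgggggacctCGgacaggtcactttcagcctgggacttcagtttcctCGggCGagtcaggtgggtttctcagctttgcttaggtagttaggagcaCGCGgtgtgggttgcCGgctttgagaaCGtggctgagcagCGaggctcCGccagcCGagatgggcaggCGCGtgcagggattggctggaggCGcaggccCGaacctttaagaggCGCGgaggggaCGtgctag
Ces3b, chr8:105083505-105083754, plus strand: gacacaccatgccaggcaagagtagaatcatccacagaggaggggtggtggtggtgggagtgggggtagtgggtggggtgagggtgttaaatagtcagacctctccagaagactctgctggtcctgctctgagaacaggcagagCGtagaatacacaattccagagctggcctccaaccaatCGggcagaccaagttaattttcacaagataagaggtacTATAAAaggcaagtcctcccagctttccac
The next pair is shown because the window holds the letters TTCNNNGAA, the form of sequence that STAT5 and BCL6 are known to bind, and a lncRNA near the gene differed between the sexes in the gene's direction. Capitals mark those 9 letters, TTCTCAGAA ahead of Bcl6 and TTCAGGGAA ahead of Slc22a26, 141 bases before its start. Slc22a26 belongs to a family of organic ion transporters.
Bcl6, chr16:23988853-23989102, minus strand: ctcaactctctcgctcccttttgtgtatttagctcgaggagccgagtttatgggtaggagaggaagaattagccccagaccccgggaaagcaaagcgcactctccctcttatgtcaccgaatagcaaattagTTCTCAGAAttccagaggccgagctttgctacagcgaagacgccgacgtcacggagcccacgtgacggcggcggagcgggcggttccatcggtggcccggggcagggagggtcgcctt
Slc22a26, chr19:7802668-7802917, minus strand: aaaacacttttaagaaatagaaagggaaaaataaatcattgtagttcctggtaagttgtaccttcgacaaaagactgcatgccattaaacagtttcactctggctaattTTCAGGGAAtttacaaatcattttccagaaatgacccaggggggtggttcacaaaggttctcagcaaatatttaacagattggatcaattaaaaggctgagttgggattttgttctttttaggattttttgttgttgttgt
The windows differed most in CG pairs, with 21 ahead of Bcl6, 17 ahead of Mfsd2a, 8 ahead of Grn, 2 ahead of Ces3b and 1 ahead of Slc22a26. The median over all 27025 promoters of the RefSeq table was 6.

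The single-exon lncRNAs were short and lay close to genes. Their median length was 1072 bp (quartiles 662 and 1879), and the median gap to the nearest RefSeq locus was 7421.5 bp. They had 4491 different nearest loci, so many shared a neighbour. Of all of them, 4538 were on the plus strand, 4798 on the minus strand and 170 had no strand, and 535 overlapped another lncRNA of the table. The nearest gene lay on the opposite strand with the lncRNA upstream of its start for 2796, and of these 678 began within 250 bp of the gene and 1594 within 5 kb. Another 2797 lay downstream of a gene on its own strand, 2069 upstream on its own strand, and 1565 downstream on the opposite strand. Although classed as intergenic, 84 overlapped the span of a RefSeq locus. They were often laid end to end: joining those on one strand with 10 kb or less between them gave 1642 runs of 2 or more, which held 5507 lncRNAs, and 3999 that stood alone. The longest run held 36, on chromosome 16 near Rbfox1, a splicing factor gene, and none of them was called between the sexes in either kind of RNA. Runs were defined after the values were seen.

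Depth sets what these values can show. Library sizes worked out from the values were 11.1, 12.2 and 12.4 M reads in male nuclear RNA, 11.7, 12.0 and 12.4 M in female nuclear RNA, 6.43, 11.8 and 13.8 M in male total RNA, and 10.2, 11.3 and 13.5 M in female total RNA. Summed over the 3 pools of a group, the median single-exon lncRNA had 4 reads in nuclear RNA of either sex and 1 read in total RNA of either sex. Most values below therefore rest on few reads. No read was found for 22.5% in male nuclear, 22.4% in female nuclear, 48.4% in male total and 42.0% in female total RNA. For 1 kb of sequence, a count of 0 over a group allows up to 0.0842 reads per kilobase per M library reads (RPKM) in male nuclear, 0.0832 in female nuclear, 0.0939 in male total and 0.0855 RPKM in female total RNA. These limits, and every interval from reads given below, cover counting error only, since the reads carry no molecular identifiers. All nuclear pools were sequenced in lane 4 and all male total pools in lane 3, while 1 female total pool was in lane 3 and the other two in lane 4, so lane and sex cannot be fully told apart in total RNA. The 4 Y-linked genes checked were higher in males and Xist in females in both kinds of RNA. The marker sums that follow do not carry the authors' scaling, so in total RNA they look lower in males than the log2 does. Of 5 hepatocyte markers, 1 was called higher in males and 2 higher in females in each kind of RNA. Their summed mean was 319 in males against 375 FPKM in females in nuclear RNA, and 3614 in males against 6576 FPKM in females in total RNA. Most of the total RNA sum was Alb (2711 in males, 5481 FPKM in females), with a log2 of -0.61 in the authors' deposited table. Of 5 Kupffer cell markers, 3 were called higher in females in total RNA (summed mean 9.09 in males against 19.96 FPKM in females) and 0 in nuclear RNA (4.90 in males against 4.999 FPKM in females), and of 4 erythroid markers 1, Alas2, was called higher in males in each. Of 5 markers each, 0 endothelial markers were called in either kind of RNA, 1 stellate marker was called higher in females and 1 cholangiocyte marker higher in males in total RNA. Their part in the differences below was not tested.

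In every group most single-exon lncRNAs sat far below 1 RPKM, and nuclear RNA held more of them than total RNA in each sex. The authors' mean had a median of 0.102 RPKM in male nuclear and 0.103 RPKM in female nuclear RNA, against 0.00978 RPKM in male total and 0.0230 RPKM in female total RNA. At 1 RPKM or more stood 444 (4.67%) in male nuclear and 520 (5.47%) in female nuclear RNA, against 30 (0.316%) in male total and 74 (0.778%) in female total RNA. All of them together took 0.580% of the reads of a male nuclear and 0.632% of those of a female nuclear library, against 0.101% in male total and 0.149% in female total RNA. The mean over both sexes was higher in nuclear RNA for 7666 and higher in total RNA for 570, and 1270 were at 0 in all 4 groups. Unnamed intergenic lncRNAs of 2 exons near genes (727) had medians of 0.0947 and 0.0942 RPKM in male and female nuclear RNA, and those of over 2 exons (585) had 0.111 and 0.0966 RPKM, so nuclear medians were close across exon numbers. In total RNA the medians were 0.0146 and 0.0217 RPKM in males and females for 2 exons, and 0.0249 and 0.0364 RPKM for over 2 exons.

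**Figure D1:**
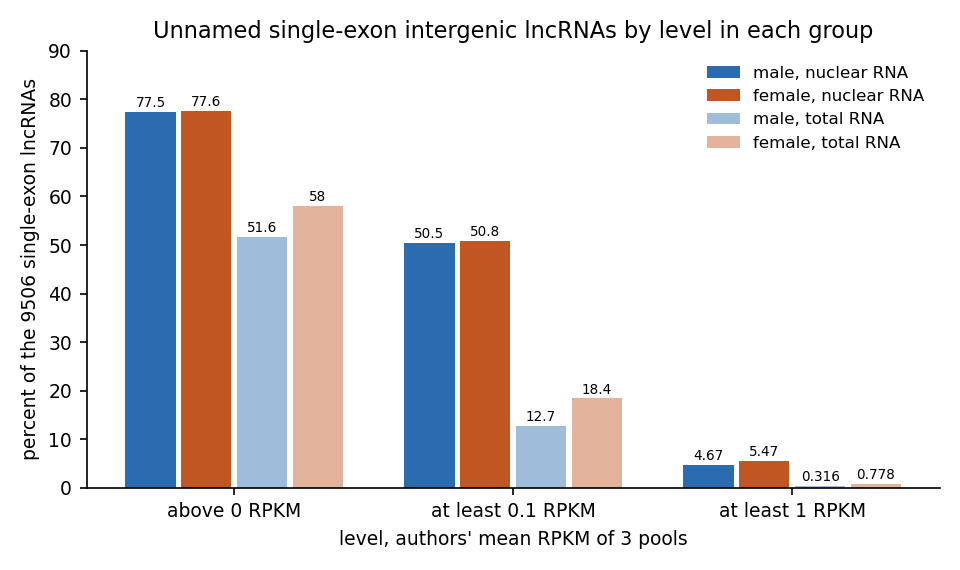
Percent of the 9506 single-exon lncRNAs (vertical axis) whose authors' mean was above 0, at least 0.1 and at least 1 RPKM (horizontal axis), with a bar each for male nuclear, female nuclear, male total and female total RNA. At every level both nuclear bars stand above both total bars, from 77.5% and 77.6% against 51.6% and 58.0% above 0, to 4.67% and 5.47% against 0.316% and 0.778% at 1 RPKM.

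Among the 596 that reached 1 RPKM in at least 1 group, log2 of (nuclear + 1) over (total + 1) had a median of 0.96 in males and 0.93 in females. Over the 1237 lncRNAs of the whole table that passed the same filter, the medians were 0.96 in both sexes, so the single-exon class was shifted no further toward the nucleus than lncRNAs in general. In nuclear RNA 594 reached 1 RPKM in a sex, against 78 in total RNA, so the filter itself favoured values above 0. The mean over both sexes was above 0 for 594 of the 596 and below 0 for 2. The extreme in the other direction was ncRNA_inter_chr10_9208, 240 bp long and 32051 bp from Eea1, an early endosome tethering protein gene. It had 0 reads in male and in female nuclear RNA, against 2.48 RPKM in male total and 2.26 RPKM in female total RNA. At the nuclear extreme, ncRNA_inter_chr12_10880 overlapped Serpina4-ps1 on the opposite strand, with 36.0 and 27.3 RPKM in male and female nuclear RNA. It had 0.748 and 0.303 RPKM in male and female total RNA. Serpina4-ps1 itself had 183 and 162 FPKM in male and female nuclear RNA. Next in rank, ncRNA_inter_chr4_3685 overlapped the small nucleolar RNA host gene Snhg3, also on the opposite strand. It had 32.5 and 19.6 RPKM in nuclear RNA of males and females, against 0.455 and 0.1005 RPKM in their total RNA. Snhg3 had 2.59 and 2.62 FPKM in male and female nuclear RNA. The part of signal from the overlapped genes in these values was not tested.

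A few single-exon lncRNAs were far more abundant than the rest, and 5 of the 6 with the highest mean over the 4 groups were called between the sexes in nuclear RNA. The highest male nuclear value, 63.1 RPKM, belonged to ncRNA_inter_chr1_294 (chromosome 1, 72272647 to 72273751, plus strand), which begins 13766 bp from the start of Mreg, a melanosome transport gene, on the other strand. It had 14.1 RPKM in female nuclear RNA, and 4.35 RPKM in male total against 3.37 RPKM in female total RNA. Its log2 of males over females was 2.28 in nuclear RNA (false discovery rate (FDR) 1.50e-10) and 0.93 in total RNA (FDR 0.00649) in the authors' deposited table. The plain quotient of its total RNA means was 0.37 on the log2 scale, so much of the total RNA difference came with the authors' scaling. Mreg itself was level between the sexes in both, with log2 0.01 in nuclear and -0.18 in total RNA and an FDR of 1 for each in the authors' deposited table. On the minus strand over the same bases, ncRNA_inter_chr1_295 (72272647 to 72273412) had 14.6 RPKM in male and 3.08 RPKM in female nuclear RNA. Its nuclear log2 was 2.37 in the authors' deposited table. In total RNA it had 0.203 RPKM in males and 0 in females, so its counts were not those of the plus strand. No source used here names the strand setting. The highest female nuclear value, 66.2 RPKM against 27.8 RPKM in male nuclear RNA, belonged to ncRNA_inter_chr2_1423, 90285 bp upstream of B3galt1, a galactosyltransferase gene. The pair next in rank lay near the pseudogene Cyp2d37-ps on chromosome 15: ncRNA_inter_chr15_12779 had 24.5 RPKM in male and 40.3 RPKM in female nuclear RNA, and ncRNA_inter_chr15_12778 had 24.0 RPKM in male and 38.6 RPKM in female nuclear RNA. Both were called higher in females in nuclear RNA, with log2 -0.61 (FDR 0.000929) and -0.58 (FDR 0.00141) in the authors' deposited table.

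In nuclear RNA, 278 of the 9506 single-exon lncRNAs differed between the sexes at an FDR under 0.05 in the authors' deposited table: 123 were higher in males and 155 in females. That was 2.92%, against 4.12% of all 15558 lncRNAs. By direction, 1.29% of the single-exon lncRNAs were called higher in males and 1.63% higher in females, against 1.95% and 2.17% of all lncRNAs. Both shares were below those of all lncRNAs, a difference that was not tested. At an unadjusted p under 0.05 there were 785. The median size of a called difference was 1.91 on the log2 scale in the authors' deposited table. The authors' own mark for over 4-fold differences was set on 70 higher in males and 65 higher in females, beside 0.797% and 0.893% of all lncRNAs. In total RNA, 39 were called, 19 higher in males and 20 higher in females, which was 0.410% against 0.932% of all lncRNAs. The shares of all lncRNAs by direction were 0.450% and 0.482% there, and 195 single-exon lncRNAs had an unadjusted p under 0.05. The over 4-fold mark was set in total RNA on 15 higher in males and 11 higher in females, beside 0.244% and 0.283% of all lncRNAs.

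The share called followed the level. No call was made among the 3808 single-exon lncRNAs under 0.1 RPKM in nuclear RNA of both sexes (0 at an FDR under 0.05, 9 at an unadjusted p under 0.05 in the authors' edgeR comparison). Between 0.1 and 1 RPKM 156 of 5104 (3.06%) were called, and at 1 RPKM or more 122 of 594 (20.5%), of which 35 were higher in males and 87 in females. At 1 RPKM or more, 10 of 47 (21.3%) of the 2-exon class and 24 of 48 (50%) of the class of over 2 exons were called, against 24.3% of all lncRNAs. Over all levels, 6.33% of the 2-exon class and 12.0% of the class of over 2 exons were called. Called single-exon lncRNAs were longer than the whole class, with a median length of 2318.5 bp against 1072 bp, and farther from their gene, with a median gap of 21261.5 bp against 7421.5 bp. The part of length in these shares was not tested.

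**Figure D2:**
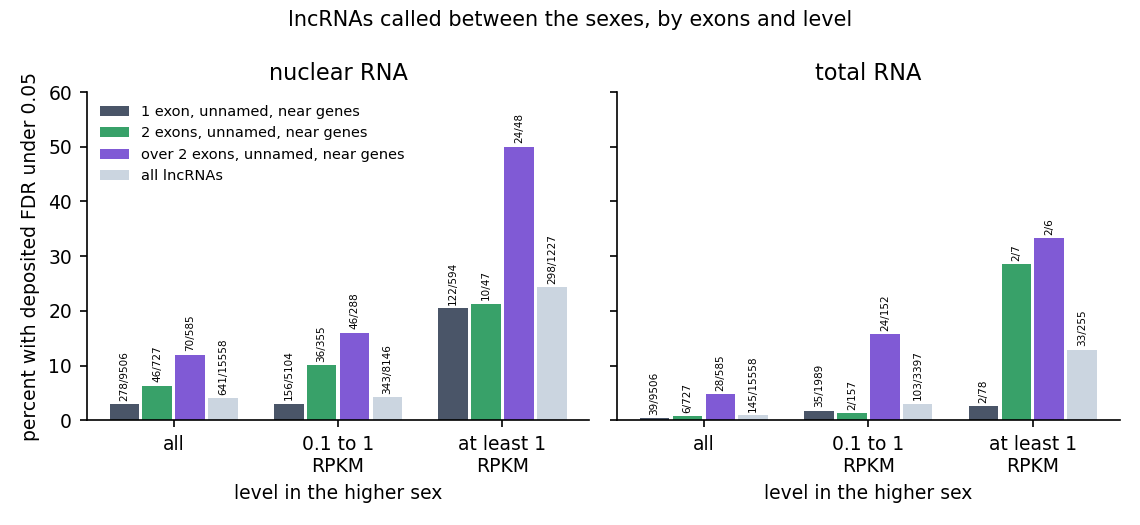
Percent of lncRNAs with an FDR under 0.05 between males and females (vertical axis) by level in the higher sex (horizontal axis) for unnamed single-exon, 2-exon and over 2-exon intergenic lncRNAs near genes and for all lncRNAs, in nuclear and in total RNA, with called and listed numbers over each bar. In nuclear RNA, 20.5% of the single-exon lncRNAs at 1 RPKM or more were called, against 50% of those of over 2 exons.

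Calls came in runs, and more so in females. Of the 5641 runs and lone lncRNAs, 150 held a call in nuclear RNA, 87 of them higher in males and 63 higher in females. Counted so, male-higher calls were 58.0% of the total, against 44.2% when each lncRNA was counted. In 40 runs 2 or more lncRNAs were called, 19 higher in males and 21 in females, and they held 168 of the 278 calls. No run held calls in both directions, in nuclear (0) or in total RNA (0). Of the 155 female-higher calls, 77 (49.7%) lay at 4 loci: 44 near Sox5 and Sox5os3 (43 on the minus and 1 on the plus strand), 13 near A1bg, 12 near Ncoa2 and 8 near Ablim1. Without these 4 loci the calls were 123 higher in males and 78 higher in females.

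The largest group of calls lay on chromosome 6, on the minus strand, from Sox5, a transcription factor gene, to beyond Sox5os3, a non-coding gene. Over 569.7 kb, 59 single-exon lncRNAs were listed on that strand, 43 of them called higher in females in nuclear RNA and 6 in total RNA, and all 59 had a log2 under 0 in nuclear RNA in the authors' deposited table. The 43 had 0.266 to 1.27 RPKM in male nuclear RNA (median 0.561) and 0.806 to 5.01 RPKM in female nuclear RNA (median 1.93). Their reads summed to 2485 in male nuclear and 8352 in female nuclear RNA, and to 609 in male total and 2073 in female total RNA. The 43 were picked by their nuclear call, so the direction of their nuclear sums was set by that choice. The same holds for the read sums of called lncRNAs at the loci below. Read sums do not carry the authors' scaling, and the ranges run over lncRNAs and are not a spread between pools. The 43 log2 values ran from -2.64 to -1.02 with a median of -1.66, as given by the authors' deposited table. The value of 5.01 RPKM belonged to ncRNA_inter_chr6_5791, against 1.27 RPKM in male nuclear RNA. Among the longest, ncRNA_inter_chr6_5762 (7698 bp) had 193 reads in male and 537 in female nuclear RNA, and 44 in male and 154 in female total RNA. Its log2 was -1.35 in nuclear RNA (FDR 1.43e-12) and -1.26 in total RNA (FDR 0.000462) in the authors' deposited table. In ncRNA_inter_chr6_5818 the log2 was -2.36 in nuclear RNA (FDR 5.09e-22) and -1.38 in total RNA (FDR 0.0326) in the authors' deposited table. Sox5 did not share the difference, with means of 1.10 FPKM in both male and female nuclear RNA and log2 0.12 (FDR 1) in the authors' deposited table. Sox5os3 had 0.102 FPKM in male and 0.400 FPKM in female nuclear RNA, and its log2 of -1.79 missed the threshold (FDR 0.0869) in the authors' deposited table. The stretch between the runs was not empty: 24 other single-exon intergenic lncRNAs, farther than 100 kb from a gene, lay there, and 18 of them were called higher in females in nuclear RNA.

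**Figure D3:**
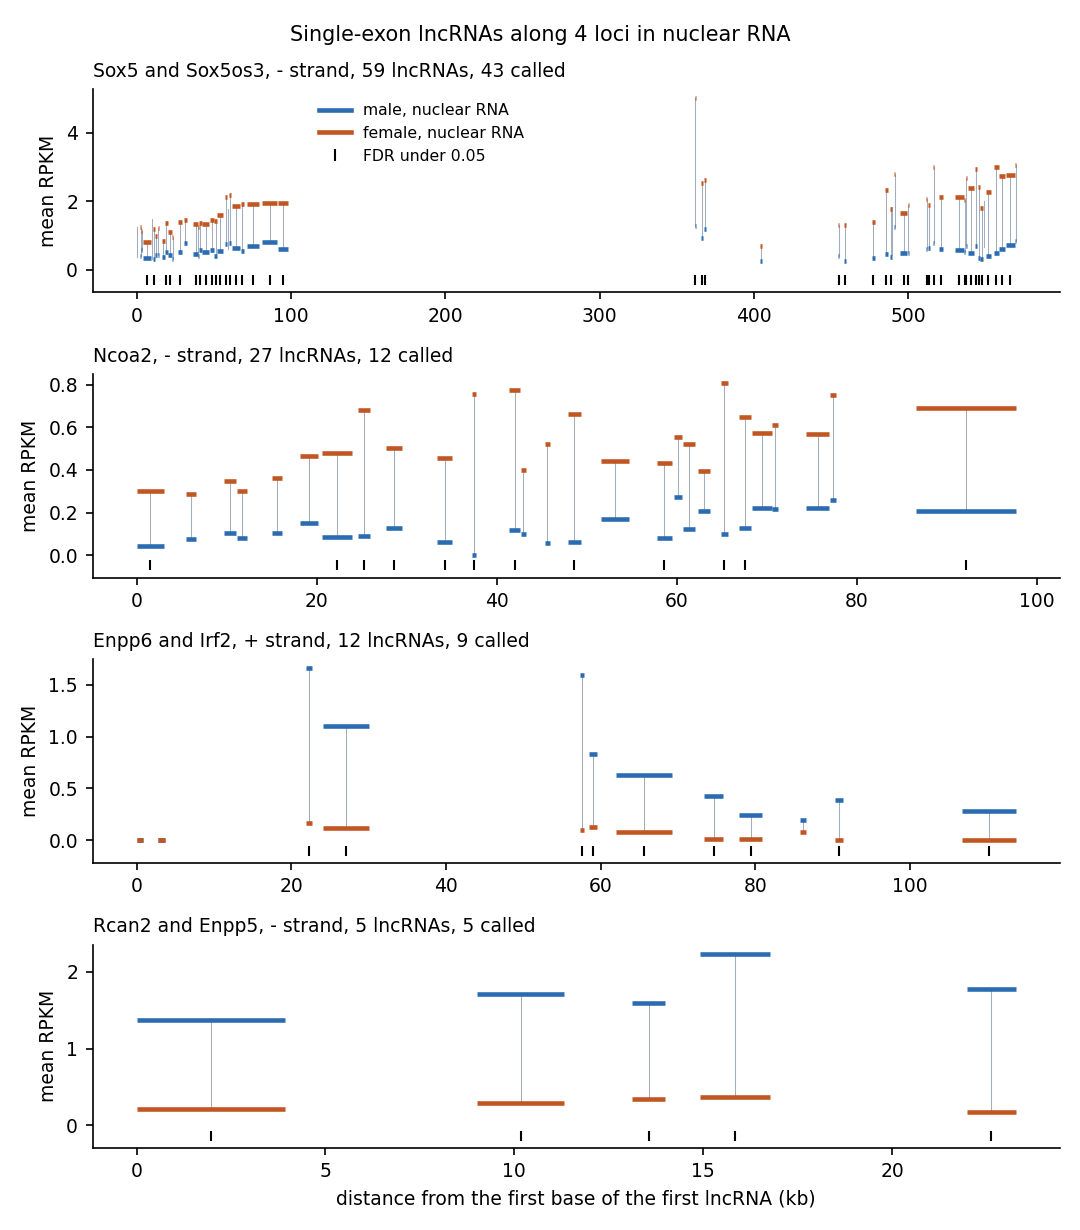
The authors' mean RPKM in nuclear RNA (vertical axis) of single-exon lncRNAs along 4 loci against distance from the first lncRNA (kb, horizontal axis), with a bar for male and a bar for female spanning each lncRNA and a tick under each with an FDR under 0.05. The female bar is above the male bar for all 59 lncRNAs near Sox5 and all 27 near Ncoa2, and the male bar is above the female bar for all 5 near Rcan2 and Enpp5.

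Other female-higher runs were smaller. Upstream of Ncoa2, a nuclear receptor coactivator gene, 27 lncRNAs lay on its strand over 97.6 kb, and 12 were called in nuclear RNA. All 27 had a log2 under 0, and the 12 ran from -4.99 to -1.61 in the authors' deposited table. Their reads summed to 136 in male and 615 in female nuclear RNA. The longest, ncRNA_inter_chr1_73 (11108 bp), had 83 reads in male and 275 in female nuclear RNA, and 8 in male and 67 in female total RNA. It was called in both, with log2 -1.61 (FDR 3.43e-07) in nuclear and -2.43 (FDR 4.93e-05) in total RNA in the authors' deposited table. Ncoa2 had 2.08 FPKM in male and 2.45 FPKM in female nuclear RNA and was not called (log2 -0.12, FDR 1 in the authors' deposited table). Upstream of Ablim1, an actin-binding protein gene, in a run that reaches past further loci, 8 of 15 were called, with 830 reads in male and 2432 in female nuclear RNA. Ablim1 was level, with log2 -0.07 (FDR 1) in nuclear RNA in the authors' deposited table. Upstream of Mtss1 on the other strand, a gene that encodes a membrane and actin binding protein, 5 of 5 were called, with 594 reads in male and 1772 in female nuclear RNA. Mtss1 moved the same way, with 8.09 FPKM in male and 11.8 FPKM in female nuclear RNA and log2 -0.42 (FDR 0.000546) in the authors' deposited table. Near Il7, a cytokine gene, 5 of 11 on the plus strand were called, with 8 reads in male and 131 in female nuclear RNA. At A1bg, a plasma glycoprotein gene, the highest, ncRNA_inter_chr15_12590, had 0 reads in male and 361 in female nuclear RNA, and ncRNA_inter_chr15_12587 had 0 in male and 48 in female nuclear RNA. The female mean of the second was 15.8-fold a floor of 3 reads over the male group, with counting error in the 48 reads left out. A1bg itself had 0.135 FPKM in male and 37.5 FPKM in female nuclear RNA.

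Male-higher calls were spread over more runs. Between Irf2, an interferon regulatory factor gene, and Enpp6, a choline phosphodiesterase gene, 9 of 12 on the plus strand of chromosome 8 were called over 113.7 kb. Their reads summed to 650 in male and 61 in female nuclear RNA, and to 89 in male and 14 in female total RNA. ncRNA_inter_chr8_6981 (5968 bp) had 1.10 RPKM in male and 0.120 RPKM in female nuclear RNA, with log2 3.27 (FDR 1.01e-29) in the authors' deposited table. Farther along, ncRNA_inter_chr8_6982 had 32 reads in male and 2 in female nuclear RNA, a ratio of 16.2 with a 95% counting interval of 4.13 to 139. Enpp6 was barely present, at 0.0458 FPKM in male and 0 in female nuclear RNA, and it was not called (FDR 0.0802 in the authors' deposited table). Irf2 had 2.56 FPKM in male and 2.94 FPKM in female nuclear RNA and was not called either (FDR 1 in the authors' deposited table).

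Between Rcan2, a calcineurin regulator gene, and Enpp5, of the same gene family as Enpp6, 5 of 5 on the minus strand of chromosome 17 were called higher in males in nuclear RNA and 4 of them also in total RNA. They had 1.37 to 2.23 RPKM in male nuclear RNA and 0.175 to 0.364 RPKM in female nuclear RNA. These ranges run over the 5 lncRNAs and are not a spread between pools. Reads summed to 609 in male and 98 in female nuclear RNA, and to 140 in male and 22 in female total RNA. The genes on either side did not move with them in the same way. Enpp5 had 0.724 FPKM in male and 0.433 FPKM in female nuclear RNA (log2 0.85, FDR 0.00561 in the authors' deposited table). Rcan2 was level in nuclear RNA and higher in females in total RNA, with 0.0965 FPKM in male and 0.601 FPKM in female total RNA (log2 -1.98, FDR 7.77e-10 in the authors' deposited table).

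At the carbonic anhydrase genes Car1 and Car3 on chromosome 3, 3 of 6 lncRNAs on the plus strand were called higher in males in nuclear RNA and 4 of 6 in total RNA. ncRNA_inter_chr3_2166 (13232 bp), which ends 1804 bp before Car3 on its strand, had 2.53 RPKM in male and 1.03 RPKM in female nuclear RNA, and 0.528 RPKM in male and 0.102 RPKM in female total RNA. Its log2 was 1.38 in nuclear RNA (FDR 0.0284) and 2.71 in total RNA (FDR 2.31e-14) in the authors' deposited table. Nearer Car1, ncRNA_inter_chr3_2161 had 29 reads in male and 1 in female total RNA, a ratio of 31.8 with a 95% counting interval of 5.28 to 1300. Car3 was called higher in males in both, with log2 0.98 (FDR 6.12e-06) in nuclear and 0.32 (FDR 0.0307) in total RNA in the authors' deposited table. Its mean in total RNA ran the other way, at 168 FPKM in males and 185 FPKM in females, so that call rests on the authors' scaling. On the minus strand of the same stretch, 3 of 8 were called higher in males in nuclear RNA.

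Further male-higher runs lay near Colec12, a scavenger receptor gene, and Cetn1, a centrin gene (7 of 13 called, 239 reads in male and 32 in female nuclear RNA). Near Mturn and Znrf2, the second an E3 ubiquitin ligase gene, 4 of 9 were called, with 127 reads in male and 3 in female nuclear RNA. There, ncRNA_inter_chr6_5162 had 22 reads in male and 0 in female nuclear RNA. Its male mean was 7.42-fold a floor of 3 reads over the female group, with counting error in the 22 reads left out. Around Nudt7, which encodes a peroxisomal coenzyme A hydrolase, 4 of 6 on the other strand were called, with 289 reads in male and 25 in female nuclear RNA. ncRNA_inter_chr8_7429 led them with 176 reads in male and 17 in female nuclear RNA (log2 3.47, FDR 1.05e-26 in the authors' deposited table). Beside it, ncRNA_inter_chr8_7427 had 33 reads in male and 1 in female nuclear RNA, a ratio of 33.4 with a 95% counting interval of 5.59 to 1359. Nudt7 was called higher in males too, with 31.4 FPKM in male and 14.7 FPKM in female nuclear RNA (log2 1.21, FDR 1.14e-24 in the authors' deposited table).

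Other male-higher lncRNAs had few female reads to set against them. ncRNA_inter_chr6_5862, 995 bp from the start of Amn1 on the other strand, had 61 reads in male and 2 in female nuclear RNA, a ratio of 30.9 (95% counting interval 8.19 to 261). Downstream of C6, a complement component gene, ncRNA_inter_chr15_12326 had 56 and 2 reads in male and female nuclear RNA, a ratio of 28.3 (7.49 to 240). C6 itself stood at 9.18 FPKM in male and 1.07 FPKM in female nuclear RNA. Near Mup1, a major urinary protein gene, ncRNA_inter_chr4_3287 had 49 and 2 reads in male and female nuclear RNA, a ratio of 24.8 (6.51 to 211). Major urinary protein genes are near-identical copies, so values at that cluster are uncertain. Upstream of the cytochrome P450 gene Cyp2c29, by 152 bp and on its strand, ncRNA_inter_chr19_15004 had 29 and 2 reads in male and female nuclear RNA, a ratio of 14.7 (3.71 to 127).

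Total RNA gave few calls of its own. Of its 39, 31 were called in nuclear RNA in the same direction (14 higher in males, 17 in females), 1 was called there in the opposite direction, and 7 were called in total RNA alone. The 31 were 79.5% of the total RNA calls and 11.2% of the 278 nuclear calls. For the 246 called in nuclear RNA alone, 220 had the same sign of log2 in total RNA in the authors' deposited table. They had a median of 73.5 reads over 6 nuclear pools and 12 over 6 total pools, and the part of depth in the missing calls was not tested. Of the 20 female-higher calls in total RNA, 16 (80.0%) lay at 4 loci, near A1bg, Sox5 with Sox5os3, Dhx40 and Ncoa2. Away from the runs above, ncRNA_inter_chr11_9508, 96019 bp from the epidermal growth factor receptor gene Egfr, had 33 and 3 reads in male and female total RNA, a ratio of 12.1 (95% counting interval 3.79 to 61.5). In nuclear RNA it had 3.49 RPKM in males and 1.56 RPKM in females (log2 1.26, FDR 0.00421 in the authors' deposited table). Near the alcohol dehydrogenase pseudogene Adh6-ps1, ncRNA_inter_chr3_2942 had 20 and 2 reads in male and female total RNA, a ratio of 11.0 (2.67 to 96.9). Near the glucuronosyltransferase gene Ugt2b1, ncRNA_inter_chr5_4329 had 3.90 and 1.48 RPKM in male and female nuclear RNA, and 0.523 and 0.261 RPKM in male and female total RNA. Of those called in total RNA alone, ncRNA_inter_chr16_13231 near Osbpl11, an oxysterol-binding protein family gene, had 2 reads in male and 25 in female total RNA. Without the authors' scaling, that was a female over male ratio of 11.4 (95% counting interval 2.84 to 99.2). With it the difference was smaller, at log2 -2.92 of males over females (FDR 0.0277 in the authors' deposited table). The same lncRNA had 1.45 RPKM in male and 2.50 RPKM in female nuclear RNA.

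**Figure D4:**
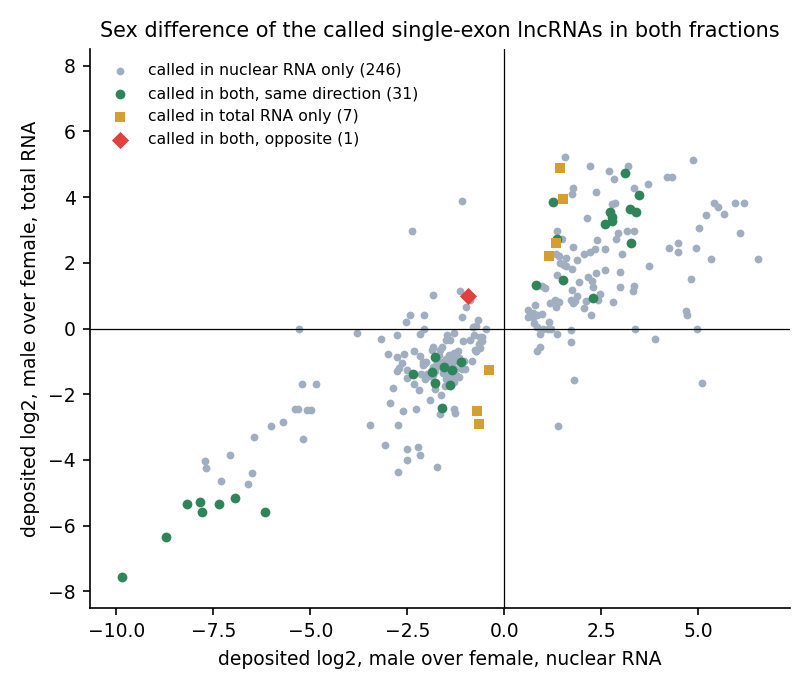
Log2 of males over females in nuclear RNA (horizontal axis) and in total RNA (vertical axis) in the authors' deposited table for single-exon lncRNAs called in both, in nuclear RNA alone and in total RNA alone. Of the 32 called in both, 31 lie to the upper right and lower left of 0 and 1, near B3galt1, to the upper left.

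The lncRNA called in opposite directions was ncRNA_inter_chr2_1426 (2979 bp), 70290 bp upstream of B3galt1 on its strand. In nuclear RNA it had 14.7 RPKM in males and 30.1 RPKM in females (log2 -0.94, FDR 2.46e-05 in the authors' deposited table). In total RNA it had 2.54 RPKM in males and 2.04 RPKM in females (log2 1.00, FDR 0.0241 in the authors' deposited table). The plain quotient of its total RNA means was 0.32 on the log2 scale, so much of the total RNA difference came with the authors' scaling. Both other abundant lncRNAs of that run were lower in males in nuclear RNA: ncRNA_inter_chr2_1423 had log2 -1.15 (FDR 7.91e-07) and ncRNA_inter_chr2_1425 log2 -0.87 (FDR 0.00137) in the authors' deposited table. Neither was called in total RNA, where their log2 values were 1.14 (FDR 0.175) and 0.87 (FDR 0.915) in the authors' deposited table. B3galt1 itself had 3.29 FPKM in male and 4.38 FPKM in female nuclear RNA (log2 -0.30, FDR 0.295 in the authors' deposited table). In total RNA it was higher in males, with 3.11 FPKM in males and 1.76 FPKM in females (log2 1.29, FDR 1.94e-12 in the authors' deposited table). Nuclear and total RNA came from separate libraries and the difference between them was not tested.

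Of the 278 single-exon lncRNAs called in nuclear RNA, 77 had a nearest gene called in the same direction, 36 higher in males and 41 higher in females. In 2 the gene was called in the opposite direction, and in 199 it was not called. Thus 28.4% of the called had a called neighbour, against 748 of 9228 (8.11%) of those not called and 4.19% of all RefSeq loci (2.03% higher in males and 2.15% higher in females). The 278 had 137 different neighbours, and 43 of these accounted for the 77. Across the 278, the log2 of the lncRNA and that of its gene in the authors' deposited table had a Pearson r of 0.79. It was 0.69 without the 13 near A1bg (n = 265) and 0.70 with 1 median per neighbour (n = 137). These are descriptions, since points share neighbours and both values come from the same libraries. The points were also picked by their call, which leaves out small lncRNA differences and can raise r. Both opposite pairs had the lncRNA higher in males: ncRNA_inter_chr5_4351 near the bicarbonate cotransporter gene Slc4a4 and ncRNA_inter_chr7_6183 near the lactate dehydrogenase gene Ldha. The first had 0.358 RPKM in male and 0.152 RPKM in female nuclear RNA, while Slc4a4 had 1.95 FPKM in male and 3.84 FPKM in female nuclear RNA. In total RNA, 17 of 39 had a neighbour called in the same direction (9 higher in males, 8 in females), 3 in the opposite direction and 19 not called. For 2 of the 17, both at Car3, the gene's means ran the other way from its call, which leaves 15, while none of the 77 in nuclear RNA had such a gene. That was 51.3% with a called neighbour, against 6.30% of those not called and 3.02% of all RefSeq loci (1.42% higher in males and 1.60% higher in females).

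**Figure D5:**
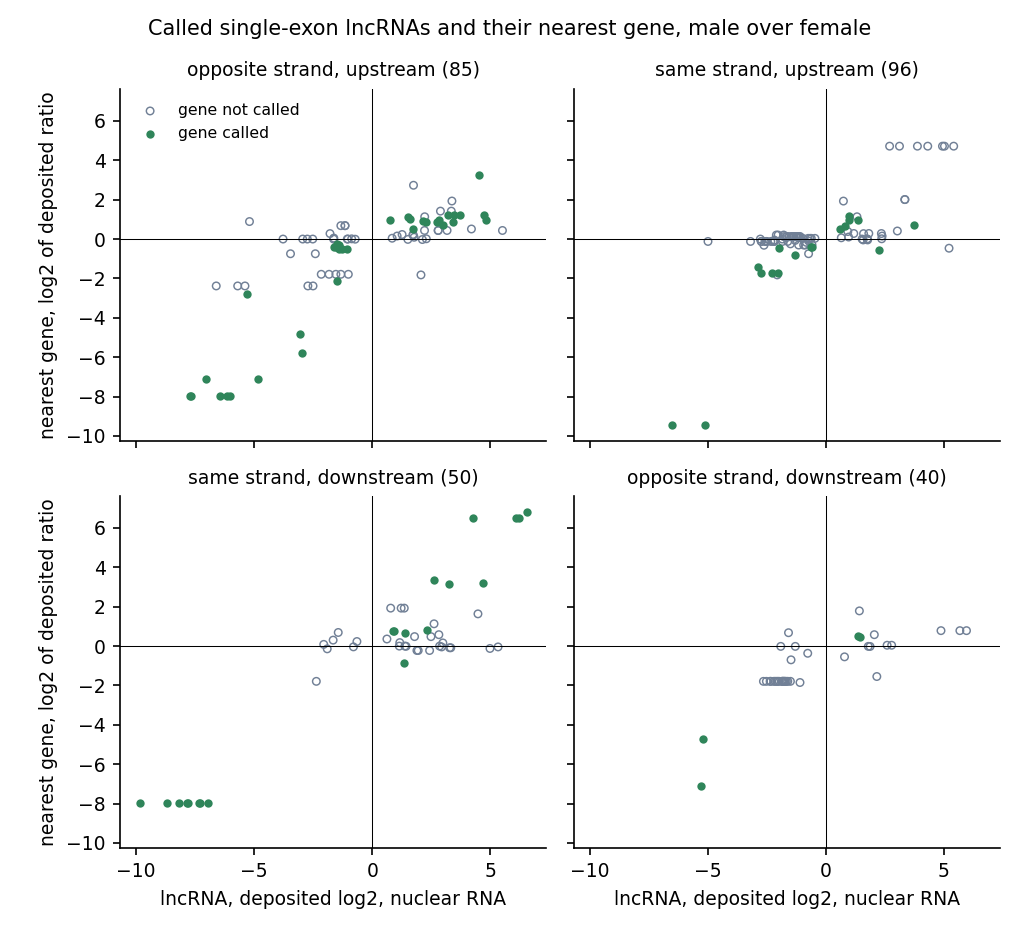
Log2 of males over females in nuclear RNA in the authors' deposited table for called single-exon lncRNAs (horizontal axis) and the nearest RefSeq gene (vertical axis), in 4 panels by position and strand, with filled points where the gene was called. Filled points lie to the upper right and lower left of 0 except the 2 opposite pairs to the lower right, and the 6 lncRNAs that overlap a gene and the 1 with no strand known are not drawn.

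Position relative to the gene went with how often the pair moved together. Of 2796 lncRNAs upstream on the opposite strand, 85 were called, and 37 of these had a gene called the same way, so 43.5% had a called gene. Downstream on the gene's own strand 50 of 2797 were called and 40.0% had a called gene, 19 of them in the same direction. Without the lncRNAs nearest to A1bg, these shares were 40% of 80 upstream on the opposite strand and 28.6% of 42 downstream on the gene's strand, with 32 and 11 in the same direction. Upstream on the gene's own strand 96 of 2069 were called, and 17.7% had a called gene. Downstream on the opposite strand 40 of 1565 were called, and 10% had a called gene. Of these 40, 15 belonged to 1 run near Sox5os3, a gene that was not called. More of the 40 came from an adjoining run of 7 with 5 called, which lay partly downstream of Sox5os3. By distinct gene, 4 of 18 were called the same way downstream on the opposite strand. That was 21 of 49 upstream on the opposite strand, 10 of 35 downstream on the gene's strand and 11 of 45 upstream on that strand. By distance, 54 of 3875 (1.39%) within 5 kb of a gene were called, 73 of 2801 (2.61%) at 5 to 20 kb and 145 of 2746 (5.28%) at 20 to 100 kb. The share with a called gene ran the other way, at 42.6% within 5 kb, 38.4% at 5 to 20 kb and 18.6% at 20 to 100 kb. The levels differed by position as well: 13.6% of those upstream on the gene's own strand reached 1 RPKM in a group, against 3.97% of those upstream on the opposite strand and 4.08% of those downstream on the gene's strand. The far bin and the upstream position hold the runs near Sox5, Ncoa2 and B3galt1, and their part in these shares was not tested. Nor was the part of the runs near Sox5os3, downstream and upstream on the opposite strand.

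The pairs that begin within 250 bp of each other on opposite strands include the genes whose promoters are printed first. ncRNA_inter_chr11_10091 lay 123 bp from Grn and had 47 reads in male and 136 in female nuclear RNA (log2 -1.39, FDR 0.000179 in the authors' deposited table). Grn had 2.43 FPKM in male and 3.75 FPKM in female nuclear RNA (log2 -0.51, FDR 0.0138 in the authors' deposited table). At 95 bp from Mfsd2a, ncRNA_inter_chr4_3618 had 17 reads in male and 53 in female nuclear RNA (log2 -1.49, FDR 0.0183 in the authors' deposited table). Mfsd2a had 0.790 FPKM in male and 3.72 FPKM in female nuclear RNA (log2 -2.11, FDR 2.40e-24 in the authors' deposited table). Of the 3, the pair at Ces3b was higher in males. ncRNA_inter_chr8_7364, 176 bp from it, had 42 reads in male and 15 in female nuclear RNA (log2 1.59, FDR 0.0352 in the authors' deposited table). Ces3b had 54.6 FPKM in male and 29.6 FPKM in female nuclear RNA (log2 1.00, FDR 5.43e-12 in the authors' deposited table). A further such pair lay at the transferrin gene Trf, 201 bp away, with 17 reads in male and 53 in female nuclear RNA. Trf itself only just passed the threshold in nuclear RNA (log2 -0.25, FDR 0.0477 in the authors' deposited table). It was not called in total RNA (log2 0.02 in the authors' deposited table). At the cytochrome P450 gene Cyp2u1, 63 bp away, ncRNA_inter_chr3_2895 was called in total RNA alone, with 15 reads in male and 1 in female total RNA (ratio 16.5, 95% counting interval 2.53 to 693). In all, 9 such lncRNAs were called in either kind of RNA. The 5 given here were picked out after their values were seen, because their gene was called in the same direction, and in the other 4, at C1ql3, Onecut1, Pex5 and Sugt1, it was not.

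Promoters were described by 3 sets of letters in the 250 bases before the start: CG, TATAAA and TTCNNNGAA, searched as written on the gene's strand, of which CG and TTCNNNGAA read the same on both strands. Of 4491 nearest loci, 3271 matched the promoter table by symbol. Their median was 15 CG pairs, and it was 19.5 for the 1044 genes with a single-exon lncRNA within 5 kb upstream on the opposite strand, against 6 for all 27025 promoters. Among genes called with a lncRNA in the same direction in either kind of RNA, 31 of 46 had a promoter in the table, with a median of 7 CG pairs. The letters TTCNNNGAA were found in 6 of these 31 (19.4%), against 7.18% of all promoters: A1bg, Apcs, Bcl6, Mir99ahg, Mroh9 and Slc22a26. TATAAA was found in 4 (12.9%), against 13% of all promoters: Ces3b, where it lies 30 bases before the start, Cyp2a4, Cyp2c29 and Prox1. Near Bcl6, ncRNA_inter_chr16_13171 (12279 bp, 89351 bp from the gene) had 1.44 RPKM in male and 0.352 RPKM in female nuclear RNA (log2 2.15, FDR 6.06e-06 in the authors' deposited table). Bcl6 itself was called higher in males in nuclear RNA, with log2 0.92 (FDR 0.00202) in the authors' deposited table. Near Slc22a26, ncRNA_inter_chr19_14769 had 5 reads in male and 49 in female nuclear RNA (log2 -3.08, FDR 1.52e-06 in the authors' deposited table). Slc22a26 was called higher in females, with log2 -4.84 (FDR 7.63e-110) in the authors' deposited table. A match of letters is a description and not a binding site.

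By gene list, 29 of the 278 nuclear calls lay near the listed genes known to differ between the sexes, 13 of them at A1bg. Of 33 measured genes known as male-biased in mouse liver, 16 were the nearest locus of 36 single-exon lncRNAs. Of these 36, 9 were called higher in males and 0 higher in females in nuclear RNA. The 9 lay near Bcl6, Cyp4a12a, Egfr, Hsd3b5, Mup1 and Nudt7, with 4 of them at Nudt7. In total RNA 3 of the 36 were called higher in males. The 36 had a median log2 of 1.64 in nuclear RNA, against 0 over all lncRNAs, in the authors' deposited table. Near 17 of 48 female-biased genes lay 47, of which 20 were called higher in females and 0 higher in males in nuclear RNA, 13 of the 20 at A1bg and others near genes that include Cyp2a4, Gm4794 and Slc22a26. Their median log2 was -2.99 in the authors' deposited table. Near growth hormone signalling and insulin-like growth factor genes, 1 of 23 was called higher in males (at Bcl6) and 1 higher in females, ncRNA_inter_chr9_8105 near Onecut1, a hepatocyte transcription factor gene. Near liver transcription factor genes, 0 of 64 were called higher in males and 3 higher in females, at Onecut1, Prox1 and Rxra, and near abundant plasma protein genes 2 of 44 were called higher in males (at the transthyretin gene Ttr) and 1 higher in females (at Trf). The share called in nuclear RNA was 25% near the male-biased and 42.6% near the female-biased genes, and 8.70%, 4.69% and 6.82% near the genes of the last 3 lists, against 2.92% of all single-exon lncRNAs. The median log2 values of these last 3 lists were -0.43, -0.04 and 0.12 in the authors' deposited table.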

How the data were processed

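RNA-seq of male and female CD-1 mouse liver, nuclear and total RNA, gave 12 libraries in 4 groups of 3 pools, grouped by the labels. The submitters' processing notes name TopHat2, featureCounts, edgeR and build mm9, without versions. No source used here names the strand setting of the counting. At Ncoa2, lncRNAs on both strands spanned the same bases, with a nuclear log2 above 0 on the plus strand and -2.51 on the minus strand. The strands were thus counted apart there, while the sources do not state the setting for the 535 overlapping lncRNAs as a whole. The deposited lncRNA table gives mean RPKM for each group by the authors and, per the file headers, edgeR's log2 of males over females, p-value and FDR. The deposited RefSeq table gives mean FPKM by the authors, male over female ratio and adjusted p-value, and its ratio was put on the log2 scale here.

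The planned count tests could not be made on means, so calls are the authors' FDR under 0.05, and p-values measure the spread between pools. Reads summed over a group and library sizes were solved from RPKM × length of single-exon lncRNAs. On simulated data at least 99.9% of 1500 sums per group were recovered. The deposited log2 exceeded that of the quotient of means by a median of 0.11 in nuclear and 0.49 in total RNA, so total RNA means look lower in males than the log2 does. Gaps are between spans on mm9, with starts counted from 1. Gene strand was taken by symbol from annotation of build GRCm38, and promoters from RefSeq (GRCm38.p6, first start listed). The pseudocount for nuclear over total was 1. Tools were Python 3.11.15, numpy 2.4.6, pandas 2.3.3, scipy 1.17.1 and matplotlib 3.10.9.

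Named lncRNAs were the 8 with the largest log2 per direction and fraction at 0.5 RPKM or more, the 6 most abundant, the 4 most and the 4 least nuclear, and 10 near listed genes. Other names, and runs, loci and promoters, were chosen after their values were seen. The class and all lists were chosen with earlier results of these data known. Other settings tried were another FDR, fold, level, distance, pseudocount and counting by runs. Results at 1 locus are not reported here.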

Additional observations from a re-analysis of the deposited data

How the results depend on the processing

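No paired analysis was possible because the tables hold group means and no pool has a value of its own, and for the same reason leaving out each pool and DESeq2 size factors were not run. In nuclear RNA, there were 178 calls at 0.5 RPKM or more in a sex (58 higher in males, 120 in females) and 133 within 20 kb of a gene (70 and 63). Counting runs once, chosen after seeing the data, gave 150 at 10 kb or less between neighbours and 130 at 50 kb or less (87 and 63, then 76 and 54). So male-higher calls were 32.6% at 0.5 RPKM or more, 52.6% within 20 kb and 58.0% by runs, against 44.2% as reported. In total RNA there were 23 at an FDR under 0.01 (15 and 8), 20 at 0.5 RPKM or more, 19 within 20 kb and 23 by runs. Neighbours called the same way numbered 51 in nuclear RNA within 20 kb, and in total RNA 9 at 0.01 and 11 within 20 kb. Without the lncRNAs nearest to A1bg, chosen after seeing the data, they numbered 64 and 9. Calls in both kinds of RNA numbered 17 at 0.01. The nuclear over total median less that of all lncRNAs was -0.00043 in males and -0.04 in females as reported. It was -0.0126 and -0.0350 with a pseudocount of 0.1, -0.0183 and -0.0173 from 0.1 RPKM, -0.0063 and -0.0049 with no filter, and 0.96 and 0.93 when not centred. The median gap was 21261.5 bp for those called in nuclear and 20752 bp for those called in total RNA. From 0.1 RPKM in a group, median levels were 0.210 and 0.208 RPKM in male and female nuclear, and 0.0376 and 0.0545 RPKM in male and female total RNA. At 0.5 RPKM or more stood 939 and 1005 in male and female nuclear, and 135 and 274 in male and female total RNA. No called lncRNA had a quotient of means of the other sign, but the balance between the sexes in nuclear calls, with more in females as reported, turned to more in males within 20 kb and by runs. The cause of these shifts was not tested, apart from the smaller set of lncRNAs that a stricter filter leaves. Depth limits total RNA most, where the median lncRNA had 1 read over a group.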
